A study of Macaca fascicularis with 2 samples.

Results

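Among blood cells enriched for CD4+CD8+ double-positive (DP) T cells, 112 of 8830 kept barcodes carried the RNA of B cells without T cell receptor RNA. A barcode marks the content of 1 droplet, and the 112 were chosen by 2 sums of raw UMIs, the unique molecular identifiers that count captured RNA molecules. The B cell genes *CD79A* and *MS4A1* had to sum to 2 UMIs or more, and the T cell genes *TRAC*, *CD3D*, *CD3E* and *CD3G* to 1 or 0. They made up 1.27% of the kept barcodes (exact binomial 95% interval 1.05 to 1.52%) and are called B cells here. They were set beside 7495 T cells, which had at least 2 UMIs of the 4 T cell genes and 0 of the B cell genes, and beside 217 barcodes with at least 2 UMIs of each kind.

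B cells make antibodies and present antigen to helper T cells. Their antigen receptor is a surface immunoglobulin held by the signalling chains CD79A and CD79B, and the surface protein CD20, encoded by *MS4A1*, marks the lineage. Engagement of the receptor activates the kinases LYN, SYK and BTK and induces immediate early genes such as *EGR1* within minutes to hours. B cells take antigen up, load its peptides on MHC class II molecules and receive help through CD40. In blood most are resting naive or memory cells that recirculate through lymphoid follicles.

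The study profiled peripheral blood of 1 untreated cynomolgus monkey (*Macaca fascicularis*, 10 years old). Magnetic beads took out CD4+ cells first, and CD8+ cells were selected from these. The product was stained with antibodies to CD4 and CD8α that carry sequence tags and was run as 1 droplet sample with 5′ chemistry. This gave 2 libraries with shared barcodes, 1 for genes and 1 for the tags, and each group compared below therefore came from the same animal, the same selection and the same run. With 1 sample there was no replicate and no test of any difference. The 95% intervals given in parentheses cover counting error only.

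The deposited table held 8953 barcodes, 29324 genes and 31966868 gene UMIs. The study's limits, 200 to 4000 genes and at most 20% of UMIs in mitochondrial genes, removed 123 barcodes, of which 1 met the rule for B cells. These limits as applied here left more barcodes than the study kept, and what set the difference is not given in the sources used here. The B cells had a median of 4550 gene UMIs (4199 to 4847; range 944 to 16329), T cells 3119 and barcodes with both kinds of RNA 4063. The 13 mitochondrial genes took a median of 4.80% of the UMIs of a B cell and 3.60% of those of a T cell. Ribosomal protein genes took 16.8% of all UMIs in B cells and 23.5% in T cells. Levels below are CPM, the UMIs of a gene summed over a group and scaled to a total of 1000000 gene UMIs, and ratios are log2 of the CPM of B cells over that of T cells unless another group is named.

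The counts of the genes that chose the cells were bounded by the rule and are given as a description. *CD79A* and *MS4A1* together had between 3 and 47 UMIs in a B cell, with a median of 14. The 4 T cell genes had 0 UMIs in 101 of the 112 cells and 1 UMI in 11. Just outside the rule, 3 barcodes had 2 UMIs of the T cell genes and a median of 13 of the B cell genes, and 1 had 3 and 11. On the other side, 9 barcodes had 1 UMI of the B cell genes. Their median *CD74* count was 1 UMI, against 131 in the 5 B cells with 3 to 5 UMIs of the B cell genes. The 4 barcodes just past the limit of the T cell genes had between 52 and 123 *CD74* UMIs, within the range of the B cells, so the limit did not fall in a gap on that axis.

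**Figure D1:**
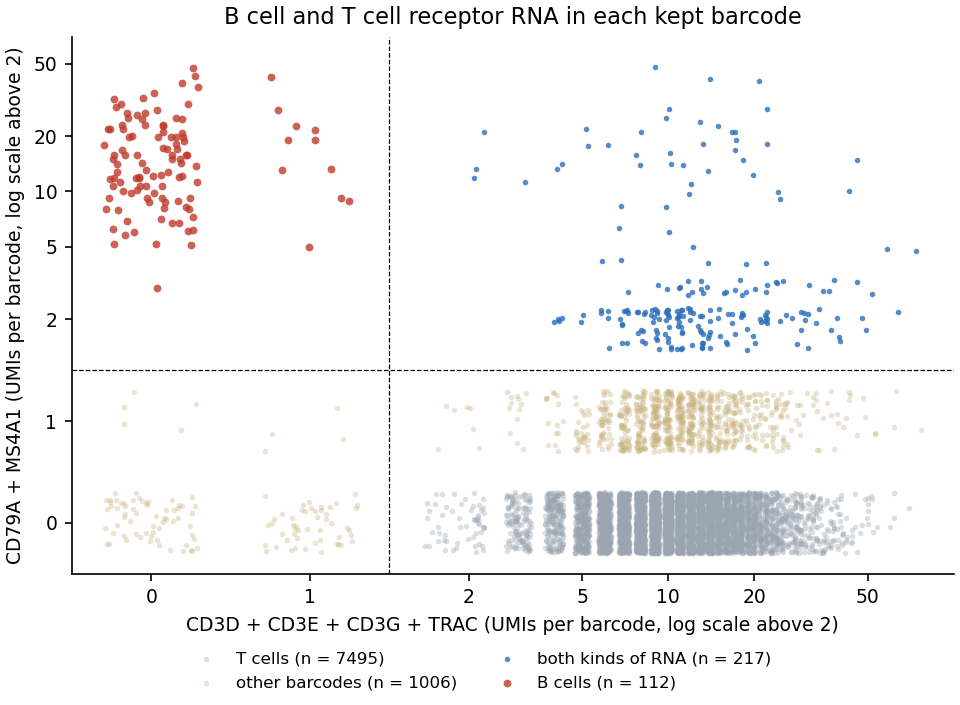
UMIs of *CD79A* and *MS4A1* (vertical axis) against UMIs of *CD3D*, *CD3E*, *CD3G* and *TRAC* (horizontal axis) in each of the 8830 kept barcodes, with a linear scale up to 2, a log scale above it and a small seeded scatter so that equal counts can be seen. Dashed lines mark the limits of the rule; 101 of the 112 B cells stand at 0 on the horizontal axis, and most of the 217 barcodes with both kinds of RNA lie at 2 on the vertical axis.

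The 2 B cell genes of the rule were spread over the sample in different ways. Of the 1547 *MS4A1* UMIs, 69.7% were in the B cells and 0.323% outside both the B cells and the barcodes with both kinds of RNA. Of the 2328 *CD79A* UMIs, 32.9% were in the B cells and 38.1% outside both groups. Those outside came almost entirely as lone molecules: 883 barcodes with at least 2 UMIs of the T cell genes had exactly 1 UMI of the B cell genes, which was *CD79A* in 881 and *MS4A1* in 2. Of these 883, 46 had a UMI of any of the 10 other B cell markers, beside 274 of the 7495 T cells. *CD79A* alone thus marked many barcodes that held little other B cell RNA, and *MS4A1* did not.

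The 10 B cell markers that the rule did not use were present in the B cells as a group. A B cell had between 2 and 10 of the 10, with a median of 6, and 111 of 112 had at least 3. Of 7495 T cells 0 had 3, although the rule kept T cells to those with 0 UMIs of the B cell genes. *CD79B*, the partner chain of CD79A, was in all 112 B cells, with a median of 8 and a highest count of 22 UMIs. It stood at 1712 CPM (1605 to 1825) in B cells and 4.24 (3.49 to 5.11) in T cells. *FCRLA*, a B cell protein related to Fc receptors, was in 97 B cells at 575 CPM, and 7495 T cells held 1 UMI of it.

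The less abundant markers were each missing from part of the cells. *PAX5*, the transcription factor that holds cells in the B lineage, had 56 UMIs in 45 of 112 B cells (101 CPM, 76.5 to 131). It had 0 in T cells, where 3 UMIs would be 0.115 CPM. It was 883-fold higher in B cells when T cells were set to the floor of 3 UMIs. *CD72*, an inhibitory coreceptor, had 140 UMIs in 62 B cells and 0 in T cells. The adaptor gene *BANK1* had 182 UMIs in 80 B cells, the kinase gene *BLK* 122 in 69 and the inhibitory lectin gene *CD22* 64 in 51. *RALGPS2* was the least restricted of the 10, since 32.4% of its UMIs lay in the B cells and 43.1% in the T cells.

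Over all genes, 4664 passed a filter of 50 UMIs in B cells and T cells together and of detection in 10% of cells in whichever group was higher. Of these, 651 were at least 2-fold higher in B cells (14% of those tested) and 377 at least 2-fold lower (8.08%), with a median ratio of 0.13. Since the rule itself separated B cell from T cell RNA, these counts and those of the lists below describe the groups and support nothing about the rule. The 15 genes with the largest ratio towards B cells included *FCRLA*, *CD40*, *BANK1*, *BTK*, *TNFRSF13B*, *FCER2*, *BLNK*, *CD72*, *FCRL1*, *PLD4*, *MILR1*, *JCHAIN*, *BLK* and *HLA-DMB*. The 15 towards T cells were *IL7R*, *SPOCK2*, *ITM2A*, *FYB1*, *TCF7*, *GATA3*, *PRKCQ*, *PDE6H*, *CAMK4*, *LEF1*, *TSPAN32*, *LAT*, *CD2*, *SLFN5* and *CD6*. The plot of gene levels shows examples of each kind.

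**Figure D2:**
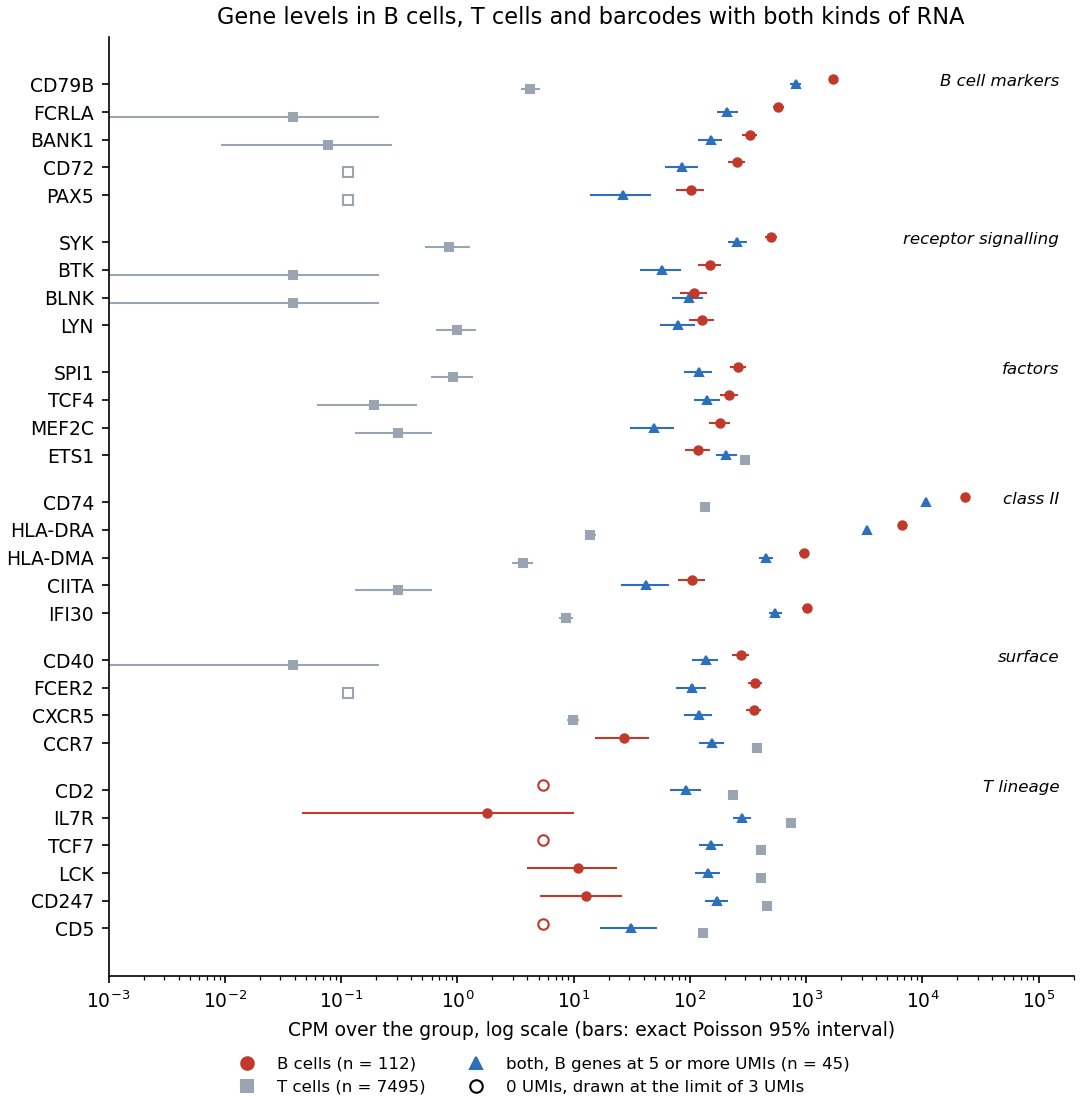
CPM on a log axis of 28 genes in B cells (circles), T cells (squares) and the 45 barcodes with T cell receptor RNA and at least 5 UMIs of the B cell genes (triangles), with exact Poisson 95% intervals; open symbols mark 0 UMIs, drawn at the limit of 3 UMIs. B cell, receptor signalling and class II genes lie far to the right of the T cells, *ETS1*, *CCR7* and the T lineage genes to the left, and the 45 mixed barcodes lie between for most genes.

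Genes of B cell receptor signalling were mostly higher in the B cells. Of 19 receptor signalling genes tested, 18 were at least 2-fold higher in B cells and 0 lower, with a median ratio of 6.99. *SYK*, the kinase that binds the phosphorylated CD79 chains, was in 105 B cells at 501 CPM (444 to 563) against 0.841 in T cells, a ratio of 9.22 (8.59 to 9.92). *BTK*, the kinase downstream of it, had 82 UMIs in 57 B cells and 1 UMI in all T cells, a ratio of 11.92 (9.40 to 17.24). The adaptor gene *BLNK* had 60 UMIs in 44 B cells and likewise 1 in T cells. *LYN*, which starts the cascade, stood at 127 CPM against 0.994, and *PLCG2*, the lipase that raises calcium, at 127 against 2.83.

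B cell transcription factors followed, with 11 of 14 tested higher, 1 lower and a median ratio of 5.33. *SPI1*, which encodes PU.1, stood at 260.3 CPM (219.6 to 306) in B cells and 0.918 in T cells. *TCF4*, an E protein gene, stood at 217 against 0.191, and *MEF2C* at 181 against 0.306. *POU2AF1*, the B cell coactivator of octamer factors, stood at 139 against 2.29. *EBF1*, which acts with PAX5, had 16 UMIs in 14 B cells and 0 in T cells and was too sparse for the filter. *ETS1* was the lower gene, at 118 CPM (90.7 to 149.8) against 295, a ratio of -1.33 (-1.70 to -0.98).

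Genes of the MHC class II pathway held a large share of the B cells' UMIs, below those of the ribosomal protein and mitochondrial genes. The 17 genes of the list with a symbol in the data (of 36 named) held 3.87% of B cell UMIs and 0.0506% of T cell UMIs, and 13 of the 14 tested were at least 2-fold higher. *CD74*, the invariant chain that guides class II molecules to the loading compartment, was in all 112 B cells, with 8 UMIs at the lowest, 107 at the median and 275 at the highest. It stood at 23070.5 CPM (22672 to 23474) against 134 in T cells. *HLA-DRA*, the α chain of HLA-DR, had a median of 30 UMIs in a B cell and stood at 6648 CPM against 13.9. Every B cell had both, whereas the median T cell had 0 UMIs of *CD74*.

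Other genes of the pathway that were detected included those for peptide loading, while 2 of the 17, *RFXAP* and *LGMN*, had 0 UMIs and *HLA-DQA1* had 9. *HLA-DMA* and *HLA-DMB*, which encode the peptide exchanger HLA-DM, stood at 949 and 616 CPM against 3.63 and 0.459 in T cells. Its B cell inhibitor HLA-DO was represented by *HLA-DOA* at 81.4 against 0.803 and *HLA-DOB* at 249 against 0.229. *CIITA*, the coactivator that switches the class II genes on, had 58 UMIs in 42 B cells (105 CPM, 79.6 to 136) and stood at 0.306 in T cells. *IFI30*, a lysosomal thiol reductase that unfolds antigen, stood at 1009 against 8.6. Among the genes with levels given here, not the whole list, *HLA-DPA1* and *HLA-DPB1* had the smallest ratios, 5.57 (5.45 to 5.70) and 4.57 (4.49 to 4.65). They stood at 40.1 and 142 CPM in T cells.

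Receptors for T cell help and survival were mostly higher in the B cells, in 7 of 10 tested with 0 lower. *CD40*, through which helper T cells signal to B cells, had 151 UMIs in 78 B cells (273 CPM) and 1 UMI in all T cells. The receptor genes for the survival factor BAFF had 62 UMIs in 41 cells for *TNFRSF13C* and 76 in 36 cells for *TNFRSF13B*. *CD83*, an activation marker, ranged from 0 to 51 UMIs in a cell and stood at 555 CPM against 7.34. *CD86*, the ligand of CD28, stood at 50.6 against 2.37.

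Homing receptors went both ways, with 3 of 13 tested higher in B cells, 3 lower and a median ratio of 0.22. *CXCR5*, the receptor that draws B cells into follicles, was in 79 B cells at 354 CPM (306 to 408) against 9.9 in T cells. *GPR183*, which positions B cells at the edge of the follicle, was in 90 at 508 against 122. *CCR7*, which brings lymphocytes to the T cell zone, was lower, at 27.1 CPM (15.2 to 44.7) in B cells, with UMIs in 11 of 112, and 376 in T cells. *S1PR1*, an exit receptor, stood at 23.5 against 71.6.

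Genes of B cell stages gave a mixed picture within the 112 cells. Of the naive list, 4 of 7 tested were higher than in T cells and 2 lower. *FCER2*, which encodes the IgE receptor CD23 of naive B cells, had 202 UMIs in 72 of 112 B cells (365 CPM, 317 to 419), a highest count of 10 and 0 UMIs in T cells. *TCL1A*, a gene of early naive and transitional cells, had 12 UMIs in 10 cells. Of the memory list, 3 of 6 tested were higher and 1 lower. The lower gene was *CD27*, a memory marker in B cells that T cells also carry, with 18 UMIs in 14 B cells (32.5 CPM against 194). *AIM2*, a DNA sensor of memory B cells, was in 61 cells at 186 CPM, and stood at 47.8 in T cells.

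A UMI of *CD27*, *TNFRSF13B* or *AIM2* was found in 74 of the 112 B cells, or 66.1% (56.5 to 74.8%). After each cell was thinned to 2200 UMIs the share was 50 of 111, or 45.0% (35.6 to 54.8%), so it depended on depth. Transitional genes were 2 higher and 1 lower of 3 tested. Of the atypical list, 5 of 8 were higher and 2 lower. Among its genes *FCRL5* had 23 UMIs in 14 cells and *ITGAX* 14 in 13, and *TBX21*, whose product drives that state, had 3. The germinal centre list had 1 gene that passed the filter, which was higher. *CD5* and *MME* had 0.

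Plasma cell genes were partly present, with 5 of 6 tested higher and 0 lower. *JCHAIN*, the joining chain of IgM and IgA, was in 67 cells at 730.4 CPM (661 to 805) against 0.497 in T cells, and reached 46 UMIs in a cell. *MZB1*, a chaperone of immunoglobulin assembly, had 78 UMIs in 47 cells. *SDC1*, the plasma cell marker CD138, had 0 UMIs, which allows up to 5.42 CPM, *TNFRSF17* 7 UMIs and *PRDM1*, the plasma cell switch gene, 1.

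Immunoglobulin genes could be followed only in part. The symbols in the data include *IGKC*, 6 kappa, 8 lambda and 3 heavy chain variable segments, and no heavy or lambda constant gene was used here. *IGKC*, the constant segment of the kappa light chain, had between 0 and 46 UMIs in a B cell with a median of 2. It was found in 74 of 112, or 66.1% (56.5 to 74.8%), and in 62 of 111, or 55.9%, after thinning, against 1.24% of thinned T cells. Its level was 846 CPM (771 to 926) in B cells and 8.76 in T cells.

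Each B cell rearranges its own variable segments, and most segments seen in the B cells lay in few of them. *IGKV4-1* had 221 UMIs in 3 B cells, 101 of them in 1 cell, and 0 in T cells. *IGLV3-1* had all of its 53 UMIs in 1 B cell, which had 0 UMIs of *IGKC*, and *IGKV1-27* all of its 31 in another. *IGKV1D-42* had 56 of 62 UMIs in 1 cell. Not every annotated segment followed B cells, since *IGLV3-9* had 33 UMIs in 32 T cells and 0 in the B cells, and *IGHV7-81* had 3 in 3 T cells. A kappa variable UMI was seen in 15 B cells, a lambda variable UMI in 5, and both *IGKC* or kappa and lambda UMIs in 2. Of the 15 with a kappa variable UMI 9 had an *IGKC* UMI, so the share with *IGKC* is not the share of kappa cells. No light chain UMI with a symbol was seen in 29. Of 1358 features with at least 50 UMIs in the B cells, 36 had theirs in at most 10 cells, and 31 of the 36 were features with an Ensembl identifier and no symbol. ENSMFAG00000011568 had the highest count in 1 cell among the 36, 336 of 798 UMIs over 7 cells, and ENSMFAG00000011823 had all of its 87 in 1. What these unnamed features encode was not determined here.

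T lineage genes that the rule did not use were near absent. All 22 tested genes of the list were at least 2-fold lower in B cells, with a median ratio of -4.91 when genes at 0 are set to 3 UMIs. Leaving out *CD27*, the 23 genes summed to 92 UMIs in the B cells, or 3.02% of the T cell level (2.43 to 3.70%). Of the 23, 9 had 0 UMIs, among them *CD2*, *CD28*, *TCF7* and *CD5*. *TCF7*, a transcription factor of resting T cells, was 74.8-fold lower when B cells were set to the floor of 3 UMIs. *IL7R*, the IL-7 receptor, had 1 UMI against 736 CPM in T cells. Of the 112 B cells, 86 had no UMI of the list, 21 had 1, 3 had 2 or 3, and 2 had more.

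Those 2 cells stood apart in other readouts, and were singled out after their values were seen. They had 38 and 26 UMIs of the 23 T lineage genes and 210 and 118 UMIs of the 14 NK and cytotoxic genes, against at most 12 in any other B cell. *GNLY*, which encodes granulysin, had 49 and 21 UMIs in them, *GZMB*, the granzyme B gene, 48 and 27, and *CD7* 19 and 12. They also had 14 and 13 UMIs of *CD79A* and *MS4A1*, the 2 highest CD8 tag counts of the B cells, 1113 and 1030, and 7781 and 7817 gene UMIs. They held 64 of the 92 T lineage UMIs and 328 of the 393 NK and cytotoxic UMIs. Without them the T lineage sum was 28 UMIs, or 0.945% of the T cell level (0.628 to 1.37%). A score for doublets, droplets with more than 1 cell, was 0.181 and 0.258 in the 2, the latter the highest of the B cells, whose median was 0.0797. In T cells the score had a median of 0.0962, a 95th percentile of 0.242 and a maximum of 0.526. The caller marked 0 of all 8830 barcodes and so has not worked here, and no barcode was removed.

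The surface tags, which the rule did not use, differed from those of the T cells. The CD4 tag had a median of 136 UMIs in B cells (123 to 144; range 9 to 513) and 420 in T cells. In 72 of 112 B cells, or 64.3% (54.7 to 73.1%), it was below the 5th percentile of T cells, 157.7, and in 1 cell it was above the T cell median. The 375 T cells below that percentile had medians of 103 CD4 tag and 1623 CD8 tag UMIs. Most B cells thus shared the CD4 tag range of these CD4-low T cells but had lower CD8 tag counts.

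The CD8 tag was less far from the T cells. Its median was 199.5 UMIs in B cells (184 to 218; range 29 to 1113), against 301 in T cells. Below the T cell 5th percentile of 142 UMIs were 12 B cells, and 16 were above the T cell median. RNA of the coreceptors was near absent, with 2 UMIs of *CD4* and 6 of *CD8A* in all 112 cells. Across cells the log10 counts of the tags had a Pearson r of 0.49 in the 112 B cells and of -0.06 in the T cells. The 40 B cells with a CD4 tag at or above the percentile had 9 T lineage UMIs (46.0 CPM) and those below it 83 (232 CPM), which include the 64 of the 2 cells with cytotoxic RNA. The plot of the tags shows the B cells at low CD4 and low CD8 counts.

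**Figure D3:**
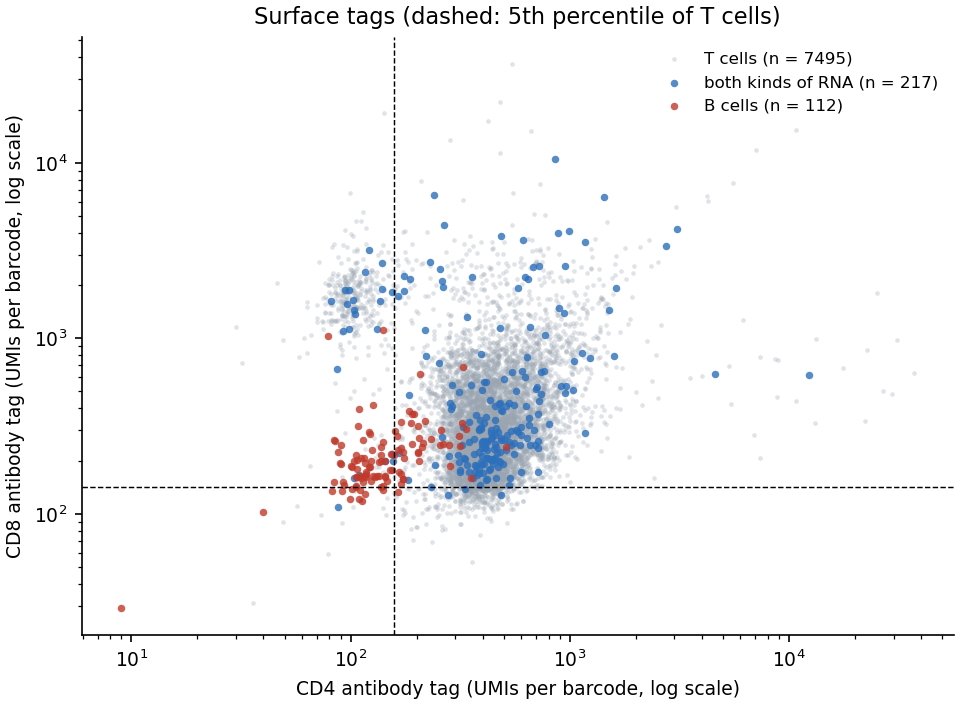
CD8 tag against CD4 tag, in UMIs per barcode on log axes, for B cells (red), barcodes with both kinds of RNA (blue) and T cells (grey); dashed lines mark the 5th percentiles of the T cells, 157.7 and 142. Most B cells lie left of the CD4 line, 2 of them among the CD4-low T cells with high CD8 counts, and the barcodes with both kinds of RNA are spread over the T cell range.

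Barcodes with both kinds of RNA were the group closest to the B cells in the rule, and they held 2 kinds of profile. In 172 of the 217 the B cell genes had 2 to 4 UMIs, of which 374 were *CD79A* and 10 *MS4A1*. A UMI of the 10 other B cell markers was found in 11 of the 172, beside 274 of the 7495 T cells. The 172 had a median *CD74* count of 0, and their T lineage genes stood at 102% of the T cell level (99.0 to 105%). In the other 45 the B cell genes had 5 or more UMIs, and the 10 other markers stood at 1799 CPM (1678 to 1927), or 44.4% of the level in the B cells. Those 45 had T lineage genes at 39.8% of the T cell level (37.3 to 42.3%), a median of 9274 gene UMIs, a median CD8 tag of 668 and a median doublet score of 0.164. The median doublet score of T cells was 0.0962 and their 95th percentile 0.242.

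Against all 217, of 3929 genes tested 327 were at least 2-fold higher in the B cells (8.32%) and 263 lower (6.69%). *NIBAN3*, *PAX5*, *MEF2C*, *NFKBID* and *FCER2* had the largest ratios towards the B cells, and *IL7R*, *SPOCK2*, *ITM2A*, *TCF7* and *FYB1* towards the 217. Against the 45 alone, a split made after the data were seen, 108 of 2381 were higher (4.54%) and 52 lower (2.18%). All 9 T lineage genes tested were among the lower. Of 10 other B cell markers 7 were higher, at a median ratio of 1.13, and of 13 class II genes 6 were. *JCHAIN* was the other way, at 1408 CPM in the 45 and 730.4 in the B cells, a ratio of -0.95 (-1.13 to -0.76). Of its 637 UMIs in the 45, 240 were in 1 barcode, and without that barcode, left out after its value was seen, its level was 927 CPM and the ratio -0.34 (-0.55 to -0.14). *TNFRSF17* had 18 UMIs in the 45, 11 of them in 1 barcode, and 7 in the 112 B cells.

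Immediate early genes set the B cells apart from the T cells and from one another. Of 20 genes of this list tested, 14 were at least 2-fold higher in B cells and 0 lower, with a median ratio of 2.07, and the 22 genes of the list took 3.01% of B cell UMIs and 0.791% of T cell UMIs. *EGR1*, a transcription factor induced by receptor signals, stood at 2811 CPM (2673 to 2955) against 10.2 in T cells. It was found in 77 of 112 B cells, or 68.8% (59.3 to 77.2%), and in 228 of 7495 T cells, and after thinning in 61.3% and 1.81%. A B cell had 0 UMIs at the lowest, 5.5 at the median and 69 at the highest, and 38 B cells had at least 20, whereas the highest T cell had 8. Of the 45 barcodes with both kinds of RNA and at least 5 UMIs of the B cell genes, 35 had an *EGR1* UMI. Against those 45, 3 of 18 genes of the list tested were at least 2-fold higher in the B cells and 0 lower. The median ratio was 0.58, and over all genes 4.54% were higher.

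Other genes of the list differed less, or in another way. *NR4A1*, a nuclear receptor gene induced by antigen receptor signals, stood at 620.1 CPM against 11 in T cells. *DUSP2*, a MAP kinase phosphatase gene, stood at 4057 against 132, and reached 169 UMIs in a B cell. *CD69*, an early activation marker that holds lymphocytes in tissue, stood at 2086 (1968 to 2210.2) against 440.1. *FOS* was high in both groups, at 5196 and 2805, a ratio of 0.89 (0.83 to 0.94), and *DUSP1* too, at 1683 and 1238. *TNFAIP3*, an inhibitor of NF-κB signalling, went slightly the other way, at 165 against 219.6 CPM, a ratio of -0.42 (-0.73 to -0.12).

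Within the B cells these genes varied together. Across the 112 cells the log level of *EGR1* had a Pearson r of 0.75 with *IER2*, 0.73 with *DUSP2*, 0.71 with *JUNB*, 0.64 with *CD69* and 0.63 with *NR4A1*. With *MYC* it was -0.01 and with *NFKBIA*, an NF-κB target gene, 0.05. It was -0.42 with *FCER2* and -0.44 with *TXNIP*. These cells share 1 library and differ in depth, and the values are descriptions.

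The 77 B cells with an *EGR1* UMI were then set beside the 35 without, a split made after the data were seen. Of 1322 genes tested, 77 were at least 2-fold higher in the cells with *EGR1* (5.82%) and 19 lower (1.44%). Of the immediate early list, which includes *EGR1* itself, 14 of 16 tested were higher and 0 lower. *DUSP2* stood at 5625 CPM with *EGR1* and 70.5 without, *CD69* at 2756 and 384, and *NR4A1* at 839 and 64.1. The 35 cells without *EGR1* thus had *DUSP2* and *JUNB* below the levels of the T cells (132 and 346 CPM). This rested on 11 *DUSP2* UMIs in 5 cells and 25 *JUNB* UMIs in 16. Their *CD69*, with 60 UMIs, was near the T cell level of 440.1 CPM. Their *NR4A1* and *CD83* were above (11 and 7.34 CPM in T cells, against 64.1 and 154), on 10 and 24 UMIs. The plot of immediate early genes shows these levels. The cells with *EGR1* had a median of 4750 gene UMIs and 4.60% mitochondrial UMIs, those without 3999 and 5.01%, and the part of these differences in the result was not tested.

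**Figure D4:**
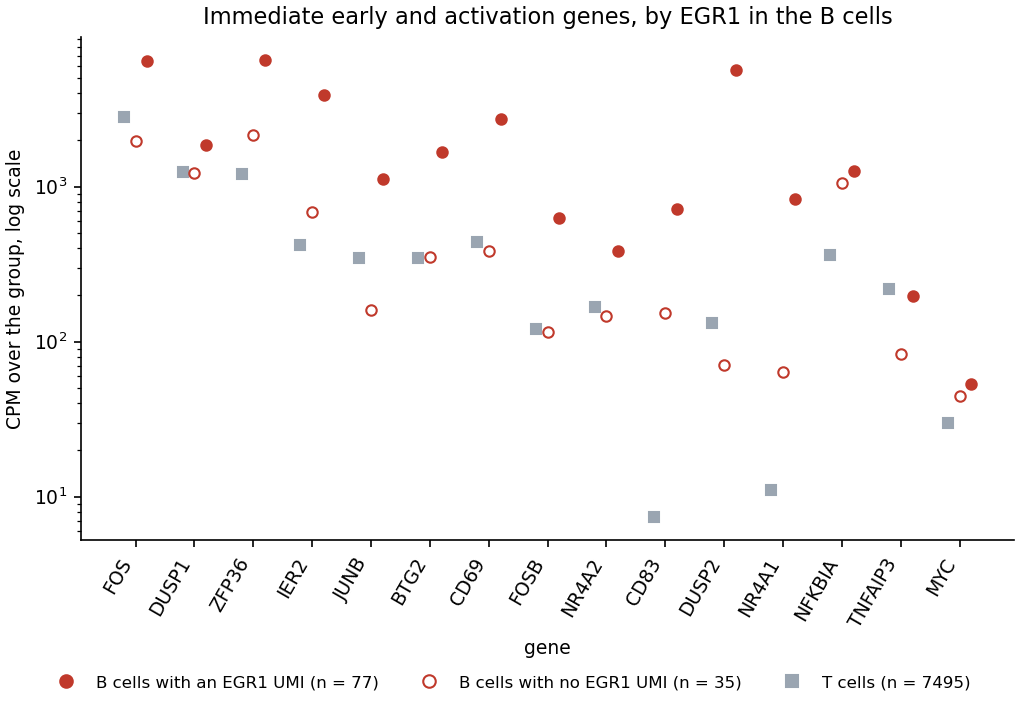
CPM on a log axis of 15 immediate early and activation genes in the 77 B cells with an *EGR1* UMI (filled circles), the 35 without (open circles) and 7495 T cells (squares). B cells with *EGR1* lie above those without for each gene drawn, by little for *NFKBIA*, *DUSP1* and *MYC*, and the cells without *EGR1* lie near the T cells for *FOSB*, *BTG2*, *CD69*, *DUSP1* and *NR4A2*.

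Some stage genes also differed in this split. *FCER2* was found in 53.2% of the 77 cells with *EGR1* and in 88.6% of the 35 without, and stood at 254 CPM against 647, a ratio of -1.35 (-1.76 to -0.93). Of 5 memory genes tested 3 were higher with *EGR1* and 0 lower, and of 3 naive genes 2 were lower. *JCHAIN* stood at 922 CPM with *EGR1* and 243 without, a ratio of 1.92 (1.44 to 2.44), and *S100A4*, a calcium-binding protein gene, at 720.4 and 205. *CD74* differed by less, at 21237 and 27732, and *MS4A1* by a ratio of 0.16 (-0.03 to 0.37).

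*FCER2* and *TNFRSF13B* overlapped in part. *TNFRSF13B* was found in 23.6% of the 72 B cells with an *FCER2* UMI and in 47.5% of the 40 without, whose median depths were 4388.5 and 4683.5 UMIs. *AIM2* and *CD27*, also of the memory list, did not follow it. *AIM2* was in 39 of the 72 and 22 of the 40, and *CD27* in 11 and 3. Between these sets of cells, another split made after the data were seen, 16 of 1321 genes were at least 2-fold higher with *FCER2* (1.21%) and 25 lower (1.89%). The 16 include *FCER2* itself, which the split fixed at 0 in the 40. Of the 112 cells, 41 had both *EGR1* and *FCER2*, 36 only *EGR1*, 31 only *FCER2* and 4 neither. The 74 cells with a UMI of *CD27*, *TNFRSF13B* or *AIM2* had more *JCHAIN*, at 937 CPM against 229, more *FCRL2*, at 140.4 against 18.6, and more *S100A4*, at 733 against 192, than the 38 without. Of 1324 genes tested between the 74 and the 38, 58 were at least 2-fold higher (4.38%) and 17 lower (1.28%). The 58 include *AIM2* and *TNFRSF13B*, which the split fixed at 0 in the 38. The 74 had less *FCER2*, at 291 against 545. *EGR1* differed little between them in pooled level, at 2910.4 and 2571 CPM, a ratio of 0.18 (0.02 to 0.34). By detection it differed more, with an *EGR1* UMI in 57 of the 74 and in 20 of the 38. Of 16 immediate early genes tested 2 were higher and 0 lower, with a median ratio of 0.16. *DUSP2* was 1 of the 2, at 5098 against 1530 CPM. *IGKC* stood at 952 against 588, a ratio of 0.69 (0.37 to 1.03). It was found in 50 of the 74 and in 24 of the 38, and 1 B cell held 46 of its 468 UMIs. The median depth was 4830 UMIs in the 74 and 4139.5 in the 38, and its part in these differences was not tested.

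**Figure D5:**
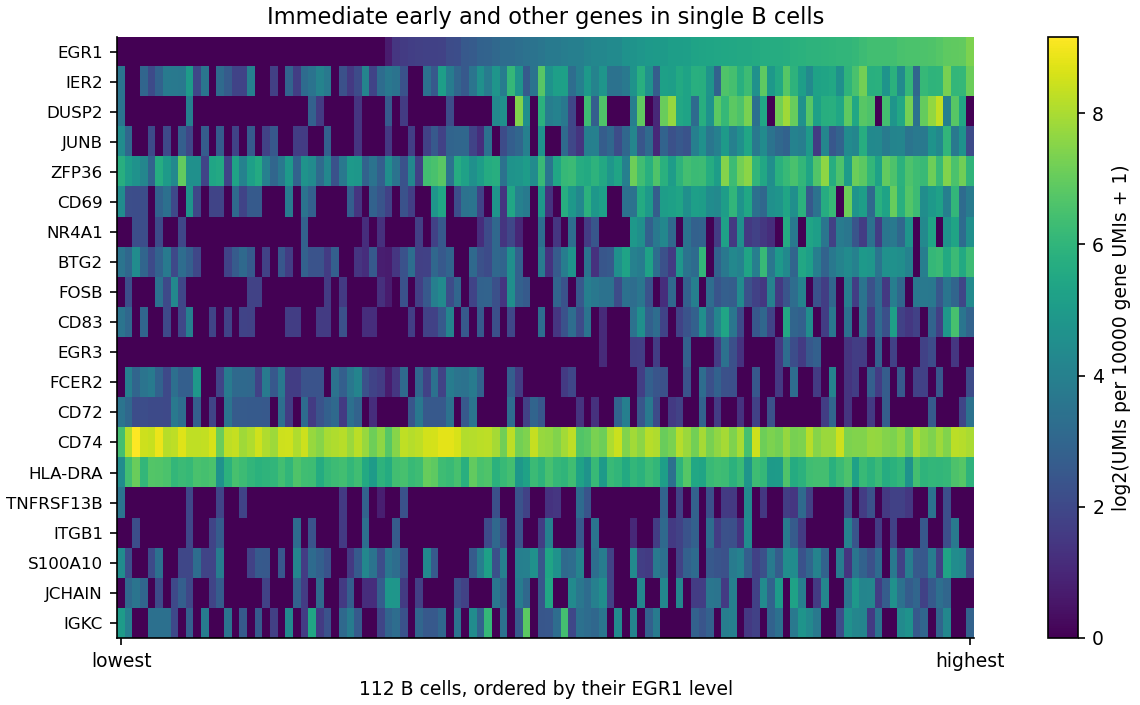
Levels of 20 genes (rows) in each of the 112 B cells (columns), ordered by *EGR1* from lowest to highest, as log2 of UMIs per 10000 gene UMIs plus 1. *IER2*, *DUSP2*, *JUNB*, *CD69* and *NR4A1* brighten to the right with *EGR1*, *FCER2* thins out, and *CD74* and *HLA-DRA* are high throughout.

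Lists of other blood cells were mixed in the 112 cells. The monocyte list summed to 165 CPM in B cells and 107 in T cells, and the dendritic list to 1287 and 947. *GZMB*, also on the cytotoxic list, held 24031 of the 24769 dendritic list UMIs in T cells and 76 of the 712 in B cells. Of the 12 monocyte genes with a symbol, 2 were tested, 1 higher and 1 lower, and *CD14*, *S100A8* and *S100A9* had 0 UMIs. *LYZ*, a lysozyme gene of myeloid cells, was the higher, at 77.7 CPM (56.3 to 105) in 30 B cells against 6.46 in T cells. The dendritic list had 3 of 5 tested higher, 1 lower and a median ratio of 5.56. The higher genes were *CD1C*, a lipid-presenting molecule at 846 CPM in 98 B cells, *TCF4* and *IRF8*, all of which B cells are known to express. Of its 13 genes with a symbol 7 had 0 UMIs, among them *CLEC4C*, *LILRA4* and *FCER1A*, which mark dendritic cells. The NK and cytotoxic list had 1 higher and 4 lower of 6 tested. No platelet or erythroid gene passed the filter, and *PPBP* and *HBB* had 0 UMIs. The cycling list had 1 gene tested, which was lower, and 51 UMIs in all, and the interferon list had 2 higher and 1 lower of 5.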

How the data were processed

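Genes and surface tags were read in 1 droplet sample of bead-selected CD4+CD8+ cells. The deposited values are raw UMI counts per feature and barcode, made by the authors with Cell Ranger 3.1.0 and STAR 2.5.1b on the Macaca_fascicularis_5.0 genome. Whether their reads were counted by strand is not given in the sources used here. Of the 29324 genes, 7899 have an identifier and no symbol, and the reference gene table, of another assembly, could not name them. Its coordinates were not used.

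The study's limits on genes and mitochondrial UMIs were applied, and groups followed the rule in the report. The study used Seurat 3.1.3 for clustering, which was not repeated. UMIs were summed per group and scaled to CPM with exact Poisson intervals. Ratios took exact binomial intervals of the UMI split, shares Clopper-Pearson intervals and medians order-statistic intervals. A group at 0 was given a floor of 3 UMIs. A gene counted as higher or lower at 2-fold or more, with at least 50 UMIs over both groups together and a UMI in 10% of the cells of the higher one, the 6 rule genes left out. Shares were repeated after thinning to 2200 UMIs, which left out 1 B cell and 632 T cells. Scrublet, in scanpy 1.11.5, gave doublet scores. The ratio step was tested on simulated data. Python 3.11.15, numpy 2.4.6, scipy 1.17.1 and pandas 2.3.3 were used.

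The cells, gene lists (330 symbols, 265 in the data) and splits were chosen with earlier results of these data known. Genes named are those of the lists, the 15 with the largest ratio each way against T cells and the 5 each way against barcodes with both kinds of RNA, and *TXNIP*, *S100A4*, the variable segments and 2 unnamed features, chosen after their values were seen. Alternatives changed the rule, the filters, the comparison group and the scaling. Some listed genes are not reported here.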

Additional observations from a re-analysis of the deposited data

How the results depend on the processing

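The share of B cells and both tag medians moved by less than their intervals under each setting that applied to them. Of 174 genes followed over 11 settings, 0 of 1914 ratios changed sign and 115 moved beyond their intervals. The T lineage sum, 3.02% of the T cell level, was 2.41% with 0 UMIs of the T cell genes, 6.42% with at least 1 UMI of the B cell genes, 2.28% as a mean over cells and 0.945% without the 2 cells with cytotoxic RNA, a setting added after seeing the data. Thinning gave 55.9% of cells with *IGKC* and 45.0% with a memory UMI, against 66.1% for each. A filter of 20 UMIs with no minimum share raised the genes past 2-fold from 1028 to 3437 against T cells and from 590 to 1337 against barcodes with both kinds of RNA. For the latter the count was 946 with at least 1 UMI of the B cell genes and 162 with at least 5. CPM without mitochondrial, ribosomal protein and immunoglobulin UMIs gave 1011 and 593. No paired analysis was possible because there was 1 animal and 1 sample. With 112 cells, a gene at 0 UMIs could still stand at 5.42 CPM, the level of 3 UMIs. Single counts of genes near that level cannot be read per cell.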

Other observations

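The 114 kept barcodes with at most 1 UMI of the T cell genes and 0 of the B cell genes belong to no comparison above. They had a median of 1502.5 gene UMIs and of 316.5 CD4 tag UMIs, and a median of 0 and a highest count of 397 *CD74* UMIs.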
